A study of Mus musculus with 15 samples.

Results

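The comparison covers 6 of the 15 arrays of the series, 3 of differentiated cells taken from CDL medium at day 4 and 3 of the embryonic stem (ES) cells at day 0. Arrays were assigned by their labels (medium, day and sort marker). All 6 samples came from the mouse ES line E14, of strain 129P2. The day 0 cells were not sorted. Their line was kept on inactivated embryonic fibroblast feeders in 15% serum with LIF at 1500 U/ml and 2i, which is a pair of small molecules, the GSK3 inhibitor CHIRON99021 and the MEK inhibitor PD0325901. Cells were moved once to gelatin without feeders before differentiation, and the labels do not say whether the day 0 RNA was taken before or after that step. The day 4 cells were plated without serum, first in BMP4 (10 ng/ml over 2 days), before a change to CDL medium, which holds CHIRON99021 at 1 µM, 0.5% DMSO and a BMP receptor inhibitor. The protocol names that inhibitor LDN193189, at 0.1 µM, while the labels of the day 4 CDL samples spell it LDN193191. The day 4 cells were sorted as positive for the Msgn1-repV reporter. A second day 4 group of 3 arrays, from RDL medium with Rspo3 at 10 ng/ml in place of CHIRON99021 and sorted the same way, is used below only to show where the CDL cells differ from it. The ES and CDL groups differ at once in day, medium, serum, BMP4 exposure and sorting, which cannot be told apart here.

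Values are deposited signal intensities on a linear scale, 1 per probe set. Differences are CDL day 4 minus ES, in log2 of signal plus 12.6, so that low signals count for less and large differences of dim genes are understated. Each gene is represented by its brightest probe set with 1 symbol, and 12400 genes were tested in limma with Benjamini-Hochberg adjustment. A gene is called higher or lower at an adjusted p under 0.05. Array medians of the whole series lay between 29.4 and 31.2, and signals near or under that level cannot be separated from background here, because no detection calls were used. A gene entered the test if its probe set was above the array median on at least 3 of the 15 arrays. A gene high only in CDL cells, or only in ES cells, can pass through the 3 arrays of that group alone. Counts over tested members are therefore descriptions. The number of arrays limits the precision, and in bulk RNA fewer cells of a type and less RNA per cell cannot be told apart.

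CDL replicate 1 stood apart from the other CDL arrays. Its mean correlation with the ES arrays was 0.899, against 0.839 and 0.840 for CDL replicates 2 and 3. Over the 310 genes lower by at least 4-fold in CDL cells, replicate 1 kept a median of 18.0% of the gap between ES cells and the other CDL arrays (interquartile range 14.7 to 21.8%). On the same genes, replicate 2 set against replicate 3 gave a median of 0.413%. Every one of the 310 genes had its highest CDL signal on replicate 1. Over the 366 genes higher by at least 4-fold, replicate 1 held a median of 84.6% of the mean signal of its mates (interquartile range 77.5 to 93.2%), and it was the lowest CDL array for 278 of them. These genes were chosen by the comparison itself, so the shares are a description. Results are given with all 3 CDL arrays first and without replicate 1 second.

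Presomitic mesoderm is the tissue of the vertebrate tail end from which somites, and later vertebrae, skeletal muscle and dermis, are cut off in sequence. Cells enter it from the primitive streak and tail bud under Wnt and FGF signals, and Msgn1 and Tbx6 are transcription factors that define its posterior part. There, Notch, Wnt and FGF genes oscillate as the segmentation clock, until cells reach the anterior part and switch on Mesp2, Ripply and Meox genes. Naive ES cells, in contrast, are held by LIF and 2i in a state marked by Nanog, Esrrb, Klf and Tfcp2l1 expression. Wnt signals act through beta-catenin and the TCF/LEF factors, which bind a core of letters CTTTGA.

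Over all genes tested, 3302 (26.6%) were higher and 3665 (29.6%) lower in CDL day 4 than in ES cells. Without replicate 1 these counts were 3194 (25.8%) and 3620 (29.2%), and 3099 and 3508 genes were called the same way in both fits, with 0 called in opposite directions. In all, 56.2% of genes tested were called with all arrays and 55.0% without replicate 1, and the lists below are to be read against those shares. At least 2-fold differences were found for 1130 genes (9.11%) upward and 1075 (8.67%) downward, or 17.8% in all. Without replicate 1 the counts were 1191 (9.6%) and 1267 (10.2%), or 19.8%.

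The promoters of the reporter gene Msgn1 and of 3 Wnt feedback genes are shown because all 4 genes rose and all 4 hold the TCF/LEF core. The windows are the 250 bases before the start site, from RefSeq on GRCm38.p6, and capitals mark each match to CTTTGA on either strand. Msgn1 lies at chr12:11208949-11209198 on the minus strand, Sp5 at chr2:70474673-70474922 on the plus strand, Dkk1 at chr19:30549497-30549746 on the minus strand, and Lef1 at chr3:131156044-131156293 on the plus strand. Each sequence reads 5′ to 3′ along its own gene.
Msgn1: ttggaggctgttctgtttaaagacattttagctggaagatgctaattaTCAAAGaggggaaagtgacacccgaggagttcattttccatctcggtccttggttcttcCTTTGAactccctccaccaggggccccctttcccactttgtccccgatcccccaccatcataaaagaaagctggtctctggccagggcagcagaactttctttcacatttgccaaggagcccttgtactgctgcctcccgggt
Sp5: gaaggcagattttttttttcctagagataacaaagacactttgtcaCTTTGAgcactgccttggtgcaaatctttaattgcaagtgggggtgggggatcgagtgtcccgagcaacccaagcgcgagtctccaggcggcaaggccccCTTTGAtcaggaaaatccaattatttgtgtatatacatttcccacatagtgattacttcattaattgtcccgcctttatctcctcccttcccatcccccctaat
Dkk1: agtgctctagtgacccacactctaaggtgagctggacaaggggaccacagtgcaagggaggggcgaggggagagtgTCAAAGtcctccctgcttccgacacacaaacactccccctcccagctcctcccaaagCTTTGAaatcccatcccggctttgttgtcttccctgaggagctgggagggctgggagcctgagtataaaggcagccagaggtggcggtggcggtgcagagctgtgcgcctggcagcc
Lef1: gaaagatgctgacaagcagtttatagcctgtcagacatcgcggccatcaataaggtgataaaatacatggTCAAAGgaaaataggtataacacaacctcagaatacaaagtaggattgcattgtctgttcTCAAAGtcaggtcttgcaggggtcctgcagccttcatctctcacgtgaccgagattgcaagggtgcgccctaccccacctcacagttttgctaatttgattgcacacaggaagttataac
In each of these windows the core occurred 2 times. In Msgn1 the matches began 202 and 143 bases before the start site, and in Sp5 204 and 104 bases before it. Over windows that also hold the 50 bases after the start site, 1 of 10 posterior presomitic genes with a promoter in the table had the core, and 3 of 8 Wnt feedback genes had it. The core was present in 16% of all 32851 mouse promoters of that length, and in 18.2% of genes. A T-box core, GGTGTGA, was in 0 of the promoters of both lists and in 3.98% of all promoters. A match describes letters in a window and not a bound site.

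The gene of the sort reporter was higher in CDL cells on every array. The CDL cells were sorted as positive for that reporter and the ES cells were not sorted. The Msgn1 values thus check the label and are not a separate finding. Msgn1 had signals of 24.6, 35.9 and 26.95 on the ES arrays and 366, 334 and 312 on CDL replicates 1, 2 and 3, a difference of 3.07 ± 0.14 (SE; adjusted p = 5.93e-11). The groups did not overlap, and replicate 1 was the highest of the CDL arrays, unlike its place in most genes that rose. Without it the difference was 3.02. Msgn1 was also higher than in RDL cells, by 0.77 (adjusted p = 0.00403).

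Of all genes tested, 26.6% were higher in CDL cells with all arrays. All 15 tested genes of the posterior presomitic mesoderm list, the sort gene Msgn1 among them, were higher, both with and without replicate 1. Their median difference was 4.25 (4.31 without replicate 1), beside -0.02 over all genes tested. Tbx6, the T-box factor that holds cells to the paraxial fate, had 16.5, 14.1 and 19.5 in ES cells and 824, 931 and 846 in CDL cells, a difference of 4.91 ± 0.13. The largest difference among all genes tested was that of Aplnr, the apelin receptor, which guides cells through and out of the streak. Aplnr had 6.22, 5.49 and 5.30 on the ES arrays and 4168, 4692 and 4677 on the CDL arrays, a difference of 7.95 ± 0.18 (adjusted p = 3.45e-14). Rspo3, which encodes a secreted R-spondin that strengthens Wnt signals, went from 13.9, 13.2 and 15.5 to 2003, 2316 and 2304. CDL medium, as the protocol describes it, has no added Rspo3 protein. Both Aplnr and Rspo3 have a second probe set that was called the same way, and the mean of probe sets gave smaller differences of 5.20 and 4.22.

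Among the ligands of the posterior presomitic mesoderm, Fgf8 rose from 14.9, 18.3 and 15.04 to 759.7, 939 and 975 and Wnt5a from 7.86, 8.69 and 8.06 to 351, 481 and 489. Wnt3a, the canonical Wnt of the tail bud, moved less, from 32.6, 31.3 and 34.3 to 95.7, 83.3 and 92.4, a difference of 1.18. Fgf17 was the smallest of the list at 0.65, with CDL signals of 53.2, 41.5 and 37.5. For both of these, as for Msgn1 and Cyp26a1, replicate 1 was the highest CDL array. Cyp26a1, the enzyme that removes retinoic acid from the tail end, was at 213, 208 and 181 in CDL cells and 32.1, 38.7 and 27.9 in ES cells.

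Pcdh8, a protocadherin of the presomitic mesoderm known as PAPC, had 10.8, 7.93 and 15.6 on the ES arrays and 141, 369.6 and 329 on CDL replicates 1 to 3. Replicate 1 held 40.5% of the mean of its mates there, the lowest share of the 15 genes. The difference was 3.51 with all arrays and 3.92 without replicate 1. Pcdh19, another protocadherin, had 108, 113 and 119.95 and 1981, 3080.4 and 2992 in the same order. Over the 15 genes replicate 1 held a median of 86.7% of its mates, and 11 of the 15 were under 100%.

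**Figure D1:**
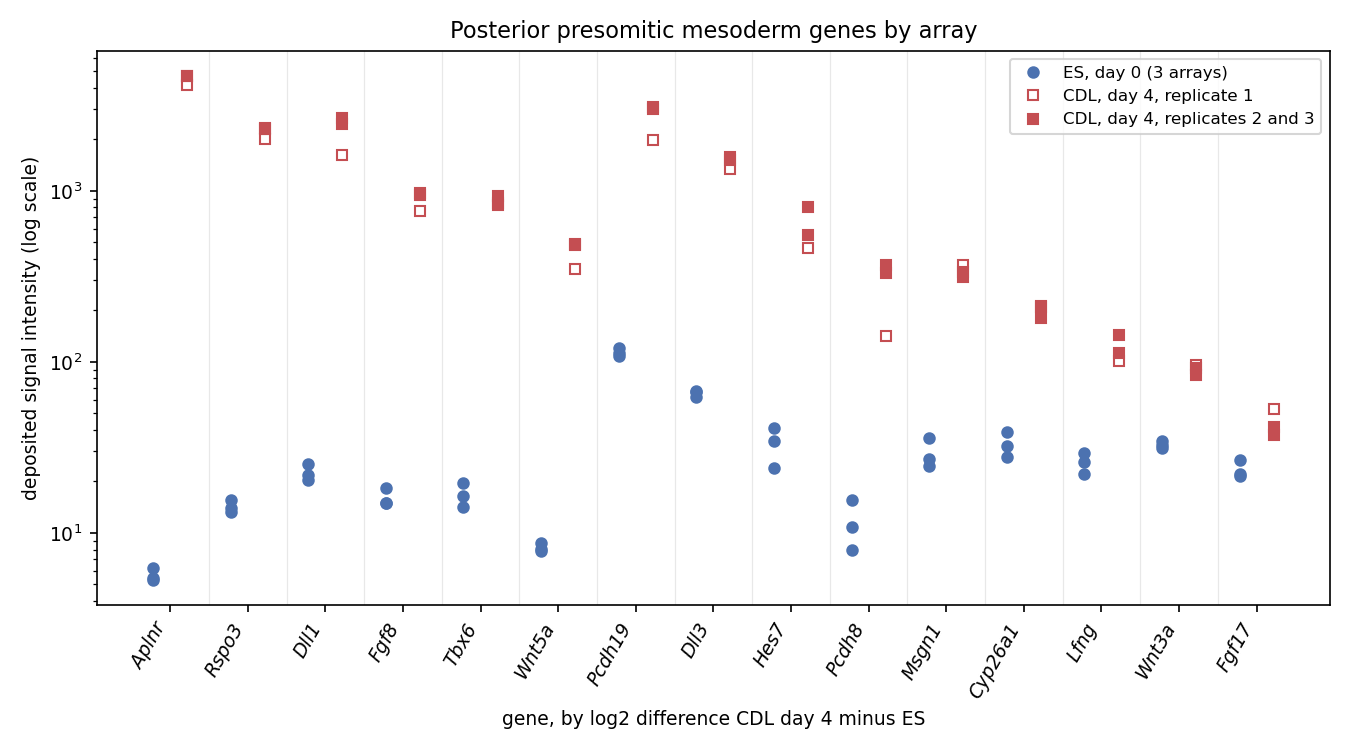
Deposited signal intensity (log axis) of the 15 posterior presomitic mesoderm genes on the 3 ES arrays (circles) and the 3 CDL day 4 arrays (squares, open for replicate 1), 1 point per array, in order of the log2 difference. No CDL array overlaps an ES array for any of the genes, and the open square is clearly apart for Pcdh8 at 141 against 369.6 and 329.

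Transcription factors of the primitive streak and tail bud were higher as well, 11 of 12 tested with all arrays and 10 of 12 without replicate 1. Mixl1, a homeobox factor of the streak, had 34.01, 28.5 and 26.2 in ES cells and 1173, 1169.7 and 1129 in CDL cells (difference 4.80). Evx1 rose by 3.49, Sp8 by 3.06 and Lhx1 by 3.52. The 3 Cdx genes, which set posterior Hox expression, differed in size, with Cdx2 at 2.58, Cdx1 at 1.74 and Cdx4 at 1.25. Mesp1, a factor of the earliest mesoderm, had CDL signals of 73.4, 111 and 146 against 49.8, 55.2 and 57.4, a difference of 0.84. Eomes, a T-box factor of the early streak, did not pass the test (-0.21, adjusted p = 0.515), with 49.98, 50.9 and 28.2 in CDL cells and 50.4, 43.5 and 58.2 in ES cells. The T-box factor T, a partner of Tbx6 in early mesoderm, was not analysed here. Nkx1-2 lost its call without replicate 1 (0.41, then 0.29 with adjusted p = 0.123).

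The anterior presomitic and somite genes split. Of 16 tested, 7 were higher and 2 lower than in ES cells, with the same counts without replicate 1, and their median difference was 0.16. Foxc1 and Foxc2, forkhead factors of paraxial mesoderm, were among those that rose. Foxc1 had 10.8, 11.3 and 11.4 in ES cells and 642, 1012 and 1018 in CDL cells, and Foxc2 had 11.5, 10.8 and 9.25 and 198, 298 and 439. Aldh1a2, which makes retinoic acid in the anterior part, rose from 30.1, 47.1 and 39.7 to 1245, 1482 and 1629.

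Genes that mark the point where somites form did not move together, with Mesp2 and Dmrt2 at or near their ES level. Mesp2, which sets the next somite border, had 52.9, 60.03 and 78.7 in CDL cells and 51.4, 59.5 and 55.2 in ES cells (0.16, adjusted p = 0.557). Dmrt2, a factor of the dermomyotome, had 8.03, 11.6 and 9.63 and 7.20, 7.52 and 7.46, both under the array median. Tcf15, also called paraxis, is needed for somites to become epithelial. It was lower in CDL cells, at 101, 75.8 and 97.6 against 139, 144 and 172, a difference of -0.66 (adjusted p = 0.0166) whose call was lost when CDL replicate 2 or ES replicate 3 was left out (highest adjusted p = 0.0751). Meox1, a somite homeobox gene, did rise, from 24.6, 26.4 and 40.8 to 102, 84.8 and 104.9.

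The same genes stood lower in CDL than in RDL cells. In that comparison 188 of all genes (1.52%) were lower in CDL and 359 (2.9%) higher, with 128 (1.03%) and 264 (2.13%) without replicate 1. Of the 16 somite genes, 10 were lower than in RDL cells and 1, Epha4, was higher (9 and 0 without replicate 1). At 2-fold, 0.774% of all genes differed between the media (0.605% without replicate 1). Meox1 had 662, 618 and 463 on the RDL arrays and was lower in CDL cells (difference -2.42, adjusted p = 1.24e-06). Tcf15 had 313, 461 and 411 in RDL cells, with a difference of -1.96. Mesp2 had 129, 218 and 241, with -1.42, and Ripply2, a partner that shuts Mesp2 off, had 65.5, 50.99 and 73.8, with -1.69. Among the posterior presomitic genes, 2 were higher (Msgn1 and Wnt3a) and 2 lower (Pcdh8 and Cyp26a1) than in RDL cells, in both fits.

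**Figure D2:**
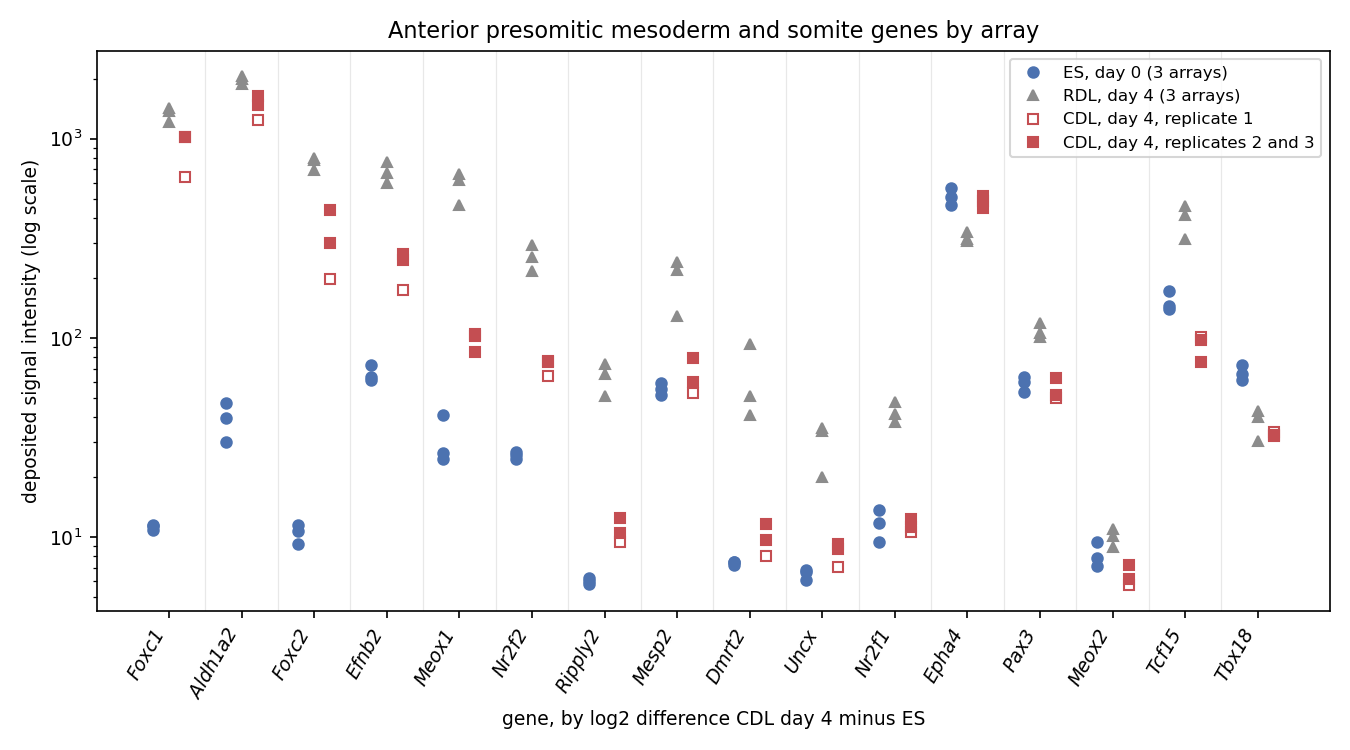
Deposited signal intensity (log axis) of the 16 anterior presomitic mesoderm and somite genes on the ES (circles), RDL day 4 (triangles) and CDL day 4 arrays (squares, open for replicate 1), 1 point per array, in order of the CDL minus ES difference. For Mesp2, Dmrt2, Nr2f1 and Pax3 the CDL arrays lie among or close to the ES arrays, while the RDL arrays lie above both.

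Of 16 Notch ligands, receptors and modifiers tested, 9 were higher and 3 lower (9 and 4 without replicate 1), with a median difference of 0.86. Dll1, the main Notch ligand of the presomitic mesoderm, rose from 20.5, 25.2 and 21.7 to 1629, 2467 and 2674, a difference of 5.99. Dll3, a divergent ligand, had 67.1, 62.5 and 67.8 and 1346, 1579 and 1504. The receptors Notch1, Notch2 and Notch3 rose by 2.19, 1.40 and 1.11, while Notch4 did not pass the test (0.16). Lfng, the sugar transferase whose rhythm modulates the receptors, was at 102, 113 and 144 against 25.9, 21.99 and 29.3. In the other direction, Rbpj, the DNA-binding partner through which all Notch receptors act, fell from 888, 867 and 880.4 to 418, 341 and 356 (-1.22, adjusted p = 1.41e-07). The ligands Jag2 and Dll4 had differences of -0.14 and -0.16 and were not called.

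Of 8 tested targets and clock repressors, 6 were higher and none lower, in both fits. Nrarp, a feedback inhibitor of Notch, had 69.7, 69.04 and 72.4 in ES cells and 911, 1616 and 1834 in CDL cells (4.08). Hes7, the core repressor of the mouse clock, had 34.4, 24.1 and 40.9 and 465, 549 and 808, so replicate 3 was the highest and replicate 1 the lowest of its group. Hes1 on CDL replicate 1 lay within the range of the ES arrays, at 203, 417 and 448 on replicates 1 to 3 against 188, 190.4 and 219.5. Its difference of 0.73 became 1.07 without that array, and its call was lost when any of 5 other arrays was left out (highest adjusted p = 0.187).

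Wnt pathway genes were called at every level, from ligand to feedback. Of 14 tested ligands 8 were higher and none lower (9 without replicate 1), against 26.6% of all genes. Beside Wnt5a and Wnt3a, the largest were Wnt6 at 2.04, Wnt8a at 1.80 and Wnt8b at 1.42. Wnt8a, a ligand of the streak, had 12.7, 14.6 and 12.1 in ES cells and 85.98, 68.5 and 77.7 in CDL cells. Wnt4, Wnt7a, Wnt7b, Wnt10b, Wnt11 and Wnt16 did not pass the test.

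Of 19 receptors and R-spondins, 10 were higher and 3 lower in both fits. Fzd2, Fzd7, Fzd1 and Fzd10, receptors of the Frizzled family, rose by 2.44, 1.94, 1.87 and 1.64. Fzd5 went the other way, from 633, 535 and 634 to 109, 29.2 and 19.6, and was highest on replicate 1 and lowest on replicate 3. The co-receptors Lrp5 and Lrp6 had differences of -0.00 and 0.18 and were not called.

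Among feedback genes and targets 12 of 13 were higher and 1 was lower, in both fits, with a median of 1.74. Lef1, itself a TCF/LEF factor, rose from 34.8, 33.99 and 51.2 to 1417, 1704 and 1711 (4.96 ± 0.21). Sp5, a zinc finger factor of the tail bud whose promoter is printed above, had 146, 137 and 164 and 951, 1372 and 953 (2.75). Dkk1, a secreted antagonist, had 24.7, 23.4 and 24.8 and 136, 295 and 201, so replicate 1 was the lowest of the CDL arrays. Axin2, the classical negative feedback gene of the pathway, rose less, from 217, 223 and 232 to 397, 769 and 534 (1.24). ES cells were cultured with the same GSK3 inhibitor within 2i, and its dose there is not given in the labels. The part of that inhibitor in these values was not tested. Notum, an enzyme that inactivates Wnt ligands, was the 1 member that fell, from 220.04, 237 and 245 to 92.5, 63.7 and 63.2 (-1.54). The mean of probe sets gave smaller differences for Wnt5a (2.42), Nkd1 (1.74, against 3.95) and Fzd5 (-2.09).

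Secreted Wnt antagonists did not move as a block. Of 11 tested, 5 were higher and 3 lower (4 and 3 without replicate 1). Frzb, a soluble Frizzled-like protein, rose from 12.96, 8.43 and 15.7 to 383, 540.1 and 592, while Sfrp1, a relative of it, fell from 511, 508 and 520.3 to 246, 168 and 178. Sfrp2 had a difference of 0.60 and was not called (adjusted p = 0.0503), although 6 of 16 alternatives called it.

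FGF ligands of the posterior mesoderm rose and the ES cell ligand fell. Of 13 ligands and receptors 7 were higher and 1 lower (6 and 1 without replicate 1). Beside Fgf8, the ligands Fgf3 and Fgf15 rose by 2.32 and 2.07, and the intracellular Fgf13 by 2.75. Fgf4, the ligand that ES cells themselves secrete, fell from 2301, 2228 and 2481 to 573, 229 and 203. Its difference of -2.91 became -3.36 without replicate 1. Fgfr1, the receptor of the presomitic mesoderm, rose from 373, 328 and 374 to 1017, 1296 and 1309, and Fgfr2, Fgfr3 and Fgfr4 did not pass the test.

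Feedback genes of ERK, the kinase below FGF receptors, were higher in 9 of 12 tested and lower in 1 (8 and 1 without replicate 1). Dusp6, a phosphatase that inactivates ERK, had 93.2, 108 and 97.9 in ES cells and 1875, 2192 and 2138 in CDL cells. Dusp4, of the same family, rose by 4.57. Il17rd, also called Sef, rose from 306, 299.7 and 298 to 1515, 1929.8 and 1849.8. Spry4 and Spry2 rose by 1.04 and 0.81, while Spry1 (0.15) was not called. The ETS factors Etv4 and Etv5 were not called higher. Etv4 had 211, 216 and 214 against 198, 187 and 232 (0.06, adjusted p = 0.737), and Etv5 fell from 1446, 1412 and 1363 to 706, 539 and 449. A MEK inhibitor was present in the ES medium and is not listed for CDL medium, and its part in these genes was not tested.

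Immediate early genes, which respond to growth factors and also to handling of cells, were higher in 14 of 18 tested and lower in 2, in both fits. Egr1 had 14.5, 16.8 and 19.9 in ES cells and 2274, 2259 and 2503 in CDL cells, a difference of 6.31, and Fos had 54.5, 45.1 and 47.5 and 3027, 2969 and 3724. Egr3 varied most among the CDL arrays, at 58.4, 131 and 305. Junb, Jun and Fosb rose by 1.51, 1.62 and 2.87. Of 10 heat shock genes tested 4 were lower and none higher (5 lower without replicate 1), beside 29.6% and 26.6% of all genes. Only the CDL cells had been sorted, and the part of sorting in these genes was not tested.

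Targets of BMP signalling moved in both directions, in cells whose last medium held a BMP receptor inhibitor. Of 10 tested, 4 were higher and 2 lower in both fits, beside 26.6% and 29.6% of all genes with all arrays. Id1, a direct BMP target, had 64.96, 60.2 and 80.8 on the ES arrays and 800.1, 1730.2 and 2267 on CDL replicates 1, 2 and 3. All CDL arrays were above all ES arrays, with replicate 3 the highest and replicate 1 the lowest of them. The difference was 4.19 ± 0.47. Id3, Id2 and Msx1 rose by 2.90, 2.13 and 2.32, while Id4 and Smad7 fell (-2.35 and -1.56). Msx2, Bambi, Smad6 and Hand1 had differences between -0.15 and 0.13 and were not called. Of 11 BMP ligands and antagonists 7 were higher and none lower, in both fits. Bmp4 and Bmp2 rose by 1.54 and 1.26, and the antagonist Fst rose from 96.8, 121 and 114 to 855, 1089 and 960.2.

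Nodal signalling genes were called in both directions. Tdgf1, the co-receptor known as Cripto, fell from 1609, 1507 and 1708 to 596, 118 and 90.9, and the ligands Gdf3 and Nodal fell (-3.69 and -1.20). The receptor gene Acvr2b and the transducer genes Foxh1, Smad3 and Smad2 rose by 1.18, 1.07, 0.79 and 0.65. In all, 5 of 12 tested were higher and 4 lower, and 5 and 5 without replicate 1. Over all genes 26.6% were higher and 29.6% lower with all arrays. Not every called member is named here, so no grouping by role is drawn. The inhibitors Lefty1 and Lefty2 did not pass the test, with 288, 278 and 204 against 183, 196 and 219.5 for Lefty1.

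Of 15 retinoic acid genes tested 6 were higher and 2 lower (7 and 1 without replicate 1). Beside Aldh1a2 and Cyp26a1, the binding proteins Crabp2 and Crabp1 rose, Crabp2 from 29.02, 29.4 and 29.8 to 850.1, 994 and 947 and Crabp1 from 159.97, 162 and 197 to 1481, 1945 and 1953. Rdh10, which makes retinaldehyde, rose by 2.07, and Stra6, a receptor for the retinol carrier, by 1.40. Cyp26b1 and Rbp4 had differences of 0.03 and 0.19 and were not called, and Dhrs3, which turns retinaldehyde back to retinol, was called lower with all arrays (-0.37) and not without replicate 1 (-0.31, adjusted p = 0.0501). Among the nuclear receptors none was called higher with all arrays, with Rara at -0.04 and Rxra at -0.21 (neither called) and Rarg at -0.43. Rarb was not called with all arrays and was called without replicate 1 (0.43 with all arrays, 0.66 without), and its CDL signals were 14.5, 37.96 and 24.1.

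Hox genes, which give mesoderm its position along the body axis, were higher in 18 of 23 tested and lower in 1, in both fits. The 10 Hox genes left out as dim are not counted. Hoxb1, an early anterior Hox gene, had 6.84, 6.89 and 6.47 in ES cells and 2139.5, 2125 and 1859 in CDL cells (6.73 ± 0.18). In the HoxB cluster the differences were 3.87 for Hoxb2, 3.20 for Hoxb3, 1.84 for Hoxb4, 2.60 for Hoxb5, 2.41 for Hoxb6 and 1.27 for Hoxb9. Hoxa5 rose from 16.7, 20.02 and 14.1 to 568, 704 and 662. Hoxd9 and Hoxd8 rose by 3.07 and 2.43, whereas Hoxa9, Hoxa7, Hoxc6 and Hoxc9 had differences of 0.41, 0.11, 0.06 and 0.15 and were not called, Hoxa9 only narrowly (adjusted p = 0.0717). Calls thus reached Hox group 9 in the B and D clusters. Against RDL cells 6 Hox genes were lower in CDL and none higher, and 2 without replicate 1. Hoxc13 was the member that fell, from 107, 112 and 123 to 43.1, 25.9 and 18.8. Among Hox cofactors, Meis1, Meis2 and Pbx3 rose by 2.18, 2.17 and 2.42. Otx2, a head gene, fell from 124, 129.6 and 104.8 to 36.1, 6.70 and 7.20, and the posterior gene Gbx2 rose by 3.03.

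Naive pluripotency genes were lower in all 18 members tested, in both fits, where 29.6% of all genes were lower. Their median difference was -4.09 with all arrays and -5.03 without replicate 1. Nanog, a core factor of naive cells, had 6343, 6313 and 5958 on the ES arrays and 1441, 40.9 and 41.4 on CDL replicates 1, 2 and 3. Replicates 2 and 3 were close to the array median and replicate 1 lay between them and the ES arrays. The Nanog difference was -5.27 ± 0.83 with all arrays and -6.85 without replicate 1. Tfcp2l1, a factor of the LIF response, had 3188, 2925 and 3483 and then 696, 15.7 and 17.5. Esrrb, an orphan nuclear receptor, had 1222, 1014 and 1064 and 216, 7.97 and 8.58. Zfp42, also called Rex1, had 4353, 4899.9 and 3973 and 1505, 88.1 and 60.4.

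A few of these genes kept signal on every CDL array. Dppa5a had 12579, 12661 and 12478 in ES cells and 7606, 2288 and 2267 in CDL cells, a difference of -1.88 (-2.46 without replicate 1). Klf4, Klf5 and Fgf4 kept CDL signals of 707, 372 and 299.6, 1206, 1165 and 655 and 573, 229 and 203. Klf5 moved least of the list (-1.07) and was higher than in RDL cells by 1.27. Over the 26 naive and germline genes that were at least 4 times as bright in ES cells as on CDL replicates 2 and 3, replicate 1 kept a median of 17.5% of the gap in signal between ES cells and the mean of its mates, with a range of 2.27 to 51.8%. The genes that gave this share were chosen by that gap, and it is a description. For Tfcp2l1, neither of 2 other probe sets was called, and the mean of probe sets was -1.76. For Esrrb that mean was -2.80, with both other probe sets called lower.

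**Figure D3:**
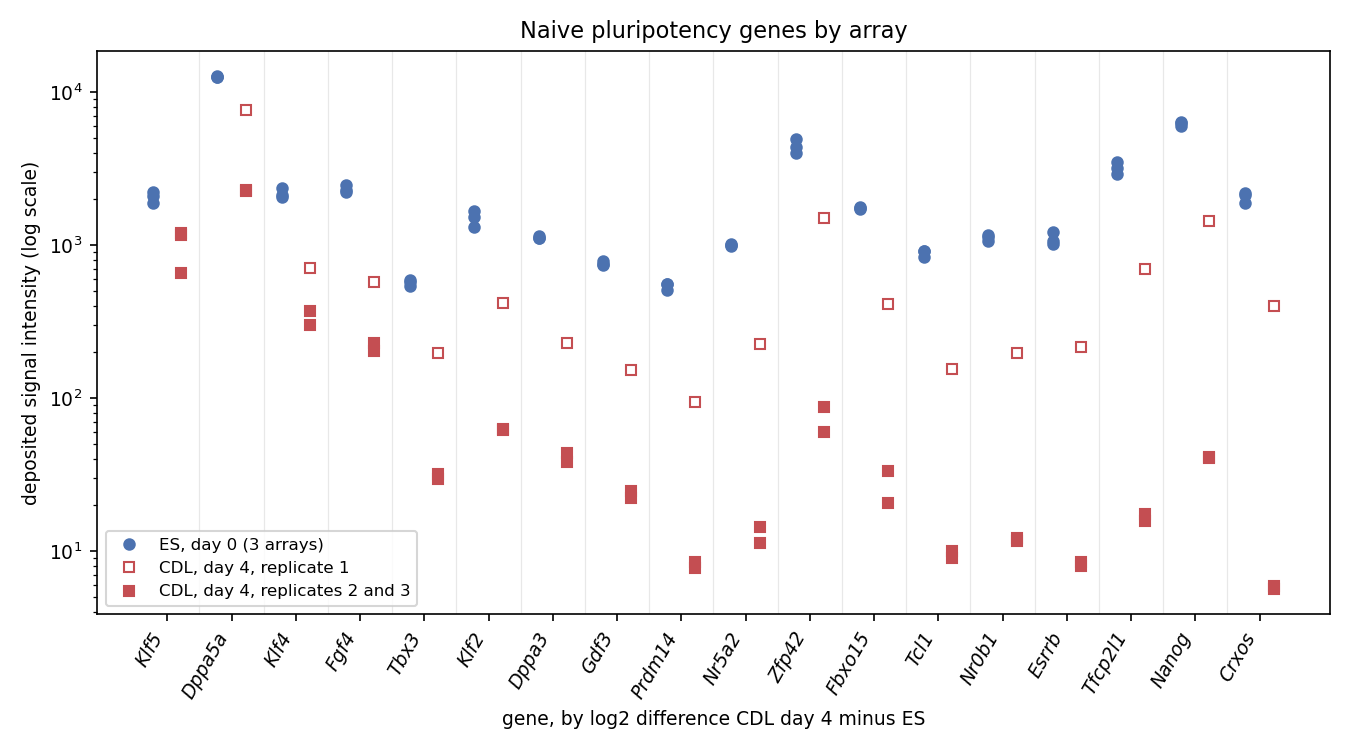
Deposited signal intensity (log axis) of the 18 naive pluripotency genes on the 3 ES arrays (circles) and the 3 CDL day 4 arrays (squares, open for replicate 1), 1 point per array, in order of the log2 difference. The open square lies between the ES arrays and the other CDL arrays for every gene, far from its mates for Nanog (1441 against 40.9 and 41.4) and close to 1 of them for Klf5.

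Genes shared by naive and later pluripotent cells were divided. Sox2 fell from 3781, 3700.1 and 2886 to 1102, 67.2 and 44.2, a difference of -4.33, or -5.68 without replicate 1. Pou5f1, also called Oct4, fell less, from 2702, 2753 and 3269.9 to 1277, 486 and 424, and stood above RDL cells by 1.62. Sall4, a zinc finger factor common to ES cells and early mesoderm, had 2118, 2083 and 2352 and 2352, 2241 and 2077 (0.03, adjusted p = 0.935). The growth genes Lin28a and Hmga2 rose, Lin28a from 172, 173 and 189 to 633, 1478 and 1379.9 and Hmga2 by 2.08. Of 14 tested, 6 were higher and 6 lower, and 4 and 6 without replicate 1. Genes of the primed epiblast, the state after implantation, were not raised together, with 3 of 11 higher and 3 lower. Fgf5 and Pou3f1 had differences of 0.19 and 0.01 and were not called, and Dnmt3b was at 0.33 (adjusted p = 0.109).

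Genes of the LIF and STAT3 response were lower in 8 of 11 and higher in 2, in both fits. Socs3, a feedback gene of STAT3, fell from 380.1, 327 and 349.99 to 129, 100.5 and 127, and Lifr, the LIF receptor, from 428, 415 and 362 to 151, 103 and 98.6. The 2 that rose were Jak2 and Junb, and Junb also stands in the immediate early list. LIF is listed for the ES medium and not for CDL medium, and its part in these genes was not tested.

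Germline genes were lower in 9 of 10 tested, with a median of -2.32 (-2.55 without replicate 1), where 29.6% of all genes were lower. Another 5 of the list were dim. A gene bright only in ES cells can pass the filter through the 3 ES arrays alone, so this count is a description. Morc1, which silences transposons in the male germline, had 2439, 2450.3 and 2221 and 499, 7.90 and 8.59. Dazl, an RNA-binding protein of germ cells, had 501, 527 and 272 and 66.2, 8.52 and 8.36. Ddx4 was not called (0.11). On replicate 1 the signals of Morc1 and Dazl lay between those of the ES arrays and of the other CDL arrays.

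Regulators of DNA methylation and of Polycomb differed by enzyme. Tet1 and Tet2, which oxidise methylcytosine, fell from 1243, 1160.3 and 1051 to 372, 178 and 165 and from 1508, 1304 and 1225 to 249.5, 69.6 and 49.6. Dnmt3l, a cofactor of methylation in germ and ES cells, fell by 3.25, while the maintenance enzyme Dnmt1 had -0.01 and was not called. Of 18 Polycomb genes, 9 were lower and 4 higher (9 and 5 without replicate 1). Cbx7, the main Cbx subunit of ES cells, fell from 421, 392 and 466 to 109, 52.3 and 49.98, and Cbx2 rose from 83.2, 84.9 and 98.9 to 319.7, 355 and 364. Mtf2 and Eed of the second Polycomb complex fell (-1.49 and -1.22), whereas its catalytic subunit Ezh2 was at 0.08 and not called.

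Imprinted genes, which are expressed from 1 parental copy and many of which govern growth, were higher in 15 of 21 and lower in 3 (16 and 2 without replicate 1). Igf2, a growth factor of embryonic mesoderm, had 42.8, 35.96 and 42.6 on the ES arrays and 1742, 2414 and 2629 on the CDL arrays, a difference of 5.40 ± 0.13. It was lower than in RDL cells (-1.08, adjusted p = 0.000126). A second Igf2 probe set was not called, and the mean of both was 2.83. Phlda2, a growth inhibitor, rose from 61.1, 73.2 and 80.6 to 1807, 2542 and 2086, and Cdkn1c, a brake on the cell cycle, from 31.4, 31.4 and 40.5 to 839, 783 and 835. Peg3 rose by 3.76 (2.31 as the mean of probe sets) and Ndn by 4.18. Plagl1 fell, from 2702, 2721 and 2521 to 1099, 371 and 312. Methylation was not measured. In the insulin-like growth factor axis 7 of 12 were higher and 1 lower. Igfbp4 rose from 45.3, 35.7 and 52.00 to 1691, 2148 and 2154, and Igfbp2 fell from 1979, 1827 and 2538 to 628, 111 and 118.

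Cell cycle genes moved by small amounts with a few exceptions. Replication licensing genes were lower in 15 of 19 and higher in 1, in both fits, with a median of only -0.48. Mcm3 fell from 2945, 2907 and 2931 to 1654, 1475 and 1495, and Cdc6 fell by 1.06. Mitosis genes were lower in 9 of 17 and higher in 2 (10 and 1 without replicate 1), with a median of -0.35. Of 19 G1 regulators 6 were higher and 7 lower (6 and 6 without replicate 1). Ccnd2, a D cyclin, rose from 19.5, 24.7 and 29.8 to 1635, 1886 and 1986. Its 6 other probe sets were all called higher, and their mean with it was 4.28. Of the other D cyclins, Ccnd3 fell by 0.85, and Ccnd1 rose by 0.65.

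Glycolysis genes were lower in 12 of 18 tested and higher in 2 (12 and 1 without replicate 1). The largest decrease was that of Pfkp, a phosphofructokinase, from 1178, 1074 and 1079 to 280.3, 53.01 and 54.3. The hexokinases Hk1 and Hk2 fell (-1.83 and -1.31), and the glucose transporter Slc2a3 fell from 9603, 9529.9 and 9862 to 5537, 2365 and 2130.2. Slc2a1, the other main glucose transporter, rose by 0.51, and Ldha was at 0.04 (adjusted p = 0.649). Among 16 enzymes of threonine, glycine, serine and methionine metabolism 10 were lower and 4 higher. Bhmt, which remethylates homocysteine, fell from 2353, 2406 and 2279 to 407, 18.5 and 27.1, and Cbs, which makes cystathionine from it, fell by 2.17. Phgdh, the first enzyme of serine synthesis, rose by 0.64. Cholesterol synthesis genes were higher in 7 of 17 and lower in 2, with a median of 0.27.

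Of 16 mesenchymal genes 10 were higher and none lower, in both fits. Cdh2, the N-cadherin of mesoderm, rose from 15.8, 21.1 and 23.1 to 1541, 1645 and 1566, and Pdgfra, a receptor of paraxial mesoderm, from 42.8, 29.6 and 38.4 to 888, 1352 and 1241. Cdh1, the E-cadherin of ES cells, fell from 2749.9, 2471 and 2459.7 to 1512, 1104 and 906, a difference of -1.15 (-1.34 without replicate 1). The Cdh1 signal on CDL cells was above that of RDL cells by 1.43. Snai1, a repressor of Cdh1, rose by 1.86, and Snai2 was not called (0.07). Epcam, an epithelial surface protein, was at 459.9, 433 and 364 against 387, 396 and 413 and was not called (0.06).

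Simple keratins went up although Cdh1 went down. Krt8 had 124, 135 and 144 in ES cells and 4129, 4119 and 3684 in CDL cells, Krt18 had 33.6, 38.9 and 40.3 and 898, 945 and 860.3, and Krt19 had 19.8, 20.3 and 18.9 and 545, 503 and 394. Their desmosome partner Dsp rose by 3.70. Replicate 1 was in the range of its mates or above them for the 3 keratins. Over all 15 tested keratins 3 were higher and 1 lower, so the increase was in those 3 named here. The 1 that was lower fell by less than 2-fold. Of the 19 epithelial genes 7 were higher and 6 lower (7 and 7 without replicate 1), and 7 were higher than in RDL cells with none lower (6 without replicate 1).

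Contractile genes of the actin and smooth muscle type were higher in 13 of 16 and lower in none, in both fits, with a median of 2.41. Actc1, cardiac actin, had 21.2, 16.2 and 14.03 and 1665, 1736 and 1656, and Tagln, an actin-binding protein of smooth muscle, had 51.2, 53.6 and 51.7 and 3414, 3703 and 3333. Acta2 and Myl9 rose by 4.72 and 5.18. In the extracellular matrix, 15 of 27 collagens were higher and 1 lower (16 and 1 without replicate 1). The basement membrane genes Col4a1 and Col4a2 rose by 2.87 and 2.43, the interstitial gene Col1a2 by 3.32, while its partner Col1a1 was not called (0.11). Lamb1 rose by 2.61 and Lamc1 fell by 1.27, although both encode chains of the same laminins.

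Of 15 chemokine and apelin guidance genes tested 10 were higher and 3 lower (9 and 3 without replicate 1). Cxcr4, a chemokine receptor of early mesoderm, rose from 23.3, 19.7 and 23.97 to 101, 208 and 194. Apela, the second ligand of the apelin receptor, fell from 1149, 1144 and 1221 to 273, 55.1 and 50.2, while Apln was at 0.27 (adjusted p = 0.0297, and up to 0.0993 with 1 array left out). Among Eph receptors and ephrins 11 of 17 were higher and 2 lower (11 and 3 without replicate 1). Efna1 and Epha1 rose by 2.11 and 2.36, and Epha2 fell from 629, 612 and 612 to 322, 229.8 and 202. Of 25 semaphorins and plexins 11 were higher and 3 lower (12 and 3 without replicate 1), and Plxna2, a semaphorin receptor, rose from 23.6, 23.2 and 23.6 to 622, 813 and 775. Of 11 hedgehog pathway genes 6 were higher and 1 lower, in both fits, with Gas1, Gli3 and Smo at 2.94, 2.60 and 2.16 and Gli2 at -1.80. The targets Gli1 and Ptch1, which is also the receptor, (0.30 and 0.14) and the ligand Shh (0.08) were not called.

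Within the proteasome, 12 of 38 tested subunits were lower and 4 higher (13 and 4 without replicate 1), with a median of -0.15. The 3 catalytic subunits of the immunoproteasome, which replace the standard ones, all rose. Psmb8 had 18.6, 17.7 and 17.7 and 292, 287 and 302, Psmb10 had 116, 107 and 144 and 654, 667 and 665, and Psmb9 rose by 1.24. Of their standard counterparts Psmb5, Psmb6 and Psmb7, Psmb5 and Psmb6 were not called (-0.08 and -0.13) and Psmb7 was at -0.27, a call that was lost when any single array of the 6 was left out. Psma8, a testis form, fell from 310.01, 335 and 287 to 73.1, 17.2 and 14.05. These subunits were singled out after their values were seen.

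Markers of other cell types were called in both directions, beside many that were dim. Of the endothelium and blood list, none of the tested genes was higher and 3 were lower, in both fits, while 7 of 12 were too dim to test, among them Cdh5, Tal1 and Gata1, and Kdr and Runx1 were not called (-0.12 and -0.07). The summed signal of the 5 tested genes was 333 to 382 on the ES arrays and 175 to 198 on the CDL arrays. For lateral plate and heart 3 of 8 were higher and 1 lower (2 and 1 without replicate 1). Isl1 rose from 18.3, 17.4 and 14.2 to 107, 173 and 142, and Bmp4 rose as given above. Gata6, also in the endoderm list, was called higher with all arrays and lost that call without replicate 1. Gata4, Hand2, Tbx5 and Tbx20 were dim, and Foxf1 and Nkx2-5 were not called. The sums over the 8 tested genes of this list were 369 to 452 and 642 to 757. In the endoderm list 2 of 10 were higher and 3 lower (1 and 3 without replicate 1). Sox17, Foxa1 and Ttr were not called and Foxa2 rose within low signals, from 15.9, 12.2 and 11.1 to 26.9, 27.2 and 30.4, with sums over 10 genes of 683 to 783 and 405 to 532. For neural tissue 3 of 8 were higher and 1 lower, in both fits. Sox1, Pax6 and Hes5 were not called, and Tubb3 fell by 3.02. The 3 that rose, Nes (1.22) among them, were each at least 2-fold higher in both fits. The sums over the 8 tested neural genes were 588 to 754 and 584 to 626. In the intermediate mesoderm list 2 of 4 were higher and 1 lower, in both fits. Pax8 and Wt1 were dim, while Lhx1, also a streak gene, rose to 351, 447 and 364 in CDL cells, and the sums over 4 genes were 217 to 233 and 449.9 to 539.8. For dermomyotome 3 of 6 were higher, in both fits, namely Met (1.23), Sim1 (0.39) and Myf5 (0.36), and Eya1 was lower (-1.43). The call of Sim1, which is also in the intermediate mesoderm list, was lost when any of 4 single arrays was left out (highest adjusted p = 0.248). That of Myf5 was lost when any of 5 was (highest adjusted p = 0.171). Pax3 was not called (-0.09) and Pax7 was dim, and the sums over 6 genes were 293 to 315 and 238 to 272. In the sclerotome list Foxc2, also a paraxial gene, was the 1 of 4 that was higher, Pax1, Pax9 and Sox9 were not called, and the sums were 93.2 to 108 and 284 to 538. In the notochord list Foxa2 was the 1 of 3 that was higher, with sums of 90.0 to 115 and 108 to 125. In the trophoblast list Cdx2 was the 1 of 5 that was higher and Tfap2c was lower (-3.39), with sums of 642 to 729.7 and 572 to 720.5. The part of such cells in the results was not tested.

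Feeder cells were checked with 14 tested fibroblast genes. Their summed signal was 518 to 562 on the ES arrays and 7373 to 8297 on the CDL arrays. Of the 14, 9 were higher in CDL cells (8 by at least 2-fold) and none lower, with a median difference of 1.28. Tagln and Acta2 carried most of the sum on the CDL arrays. The fibroblast genes Dcn, Lum, Postn and Loxl1 had ES signals of 21.3, 23.6 and 23.9, 12.3, 11.3 and 12.9, 17.05, 16.9 and 20.02 and 18.7, 21.5 and 24.1 in turn and CDL signals of 19.8, 23.5 and 22.9, 10.5, 10.9 and 11.2, 14.8, 17.9 and 17.1 and 19.9, 20.8 and 19.98. All of those are under the array median. These 4 are among the 5 tested genes of the list that were not called, so they do not stand for the whole list. The part of feeder cells in the results was not tested.

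The rule that named genes by size took the 15 largest differences each way among genes called with and without replicate 1 whose groups did not overlap. It passed over symbols of clones and predicted genes. Without any rule, 33.5% of genes had all CDL arrays above all ES arrays and 36.9% had them below. Upward, the genes named by size and not yet described were Car3, Greb1l and Lmo2. Car3, a carbonic anhydrase, had 21.3, 32.5 and 33.6 and 4221, 4452 and 4278, and its 3 other probe sets were called higher, with a mean of 3.66. Greb1l rose from 43.1, 41.8 and 43.5 to 2595, 2945 and 3046, or by 3.95 as the mean of probe sets. Lmo2, a LIM protein of blood and vessel precursors, rose from 40.4, 17.7 and 25.5 to 1496, 2059 and 2089.7, although Kdr and Runx1 were not called. Acta1, skeletal actin, rose by 5.37.

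Downward, the list with all arrays held Crxos (-5.31), Morc1, Nanog and Tfcp2l1, and genes of oocytes and ES cells. Ooep, an oocyte protein, fell from 3474, 3584 and 3489.7 to 608, 27.2 and 28.99, and Rpl39l, a variant ribosomal protein, from 4387, 4399.8 and 3655 to 1532, 26.04 and 21.7. Fam25c and Trap1a had differences of -5.03 and -4.95, and Phf11d fell from 3984, 4214 and 3109 to 488, 42.3 and 46.1. Jam2, a junction protein, fell by 4.86, and Mageb16, Calcoco2 and Nr0b1 had differences of -4.70, -4.67 and -4.49. Without replicate 1 each of these was lower still, for example Ooep at -6.44 and Rpl39l at -6.83. All 30 genes named by size kept their call in every alternative tried.

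The choice of probe set bears on size more than on call. Where a gene had several probe sets, their mean gave differences smaller by more than 1.5 times for a number of genes named above, among them Cdx2 (1.72), Lfng (0.94), Notch2 (0.66), Axin2 (0.69), Fzd1 (0.98), Fzd7 (1.05) and Fzd10 (0.85). The same held for Fgf13 (1.42), Egr3 (1.44), Acvr2b (0.61), Smad2 (0.39), Meis1 (0.89), Lifr (-0.90), Cbx2 (0.92), Cbx7 (-0.84) and Eed (-0.57). It also held for Igfbp4 (3.02), Ndn (2.48), Plagl1 (-1.27), Ccnd1 (0.38), Ccnd3 (-0.41), Pfkp (-1.92), Pdgfra (2.93), Dsp (2.46), Acta2 (1.58) and Col1a2 (2.02). The list ends with Apela (-1.91), Epha1 (1.42), Gas1 (1.65), Gli3 (1.64) and Psmb8 (1.74). Each of these kept its call. Smad3 (0.25) and Nkx1-2 (0.12) lost theirs, as did Hes1 at the same difference. Of 23 other probe sets of the genes named by size, 20 gave the same call, 3 none and 0 an opposite one.

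Replicate 1 changed the size of the decreases far more than their number. Past a difference of 4 on the log2 scale, 30 genes were lower with all arrays and 64 without replicate 1, while 65 and 71 were higher. Past 3, 89 and 149 were lower, and 145 and 154 higher. At 2-fold, 195 genes were called lower only without replicate 1 and 3 only with it. By rule, the genes with the largest differences that passed only without replicate 1 were Mir22hg, Kcnq1ot1, Zfp827, Dnm1 and Rarb. Kcnq1ot1, an imprinted long RNA, had 177, 283 and 280.5 on CDL replicates 1 to 3 and 188, 189 and 134 on the ES arrays, so replicate 1 alone lay within the ES range. Those that passed only with it were Thap2, Ccnt2, Sf3a2, Nudt7 and Ppp3r1. For Thap2 the CDL signals were 67.4, 53.3 and 55.6 against 28.1, 33.6 and 33.7.

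**Figure D4:**
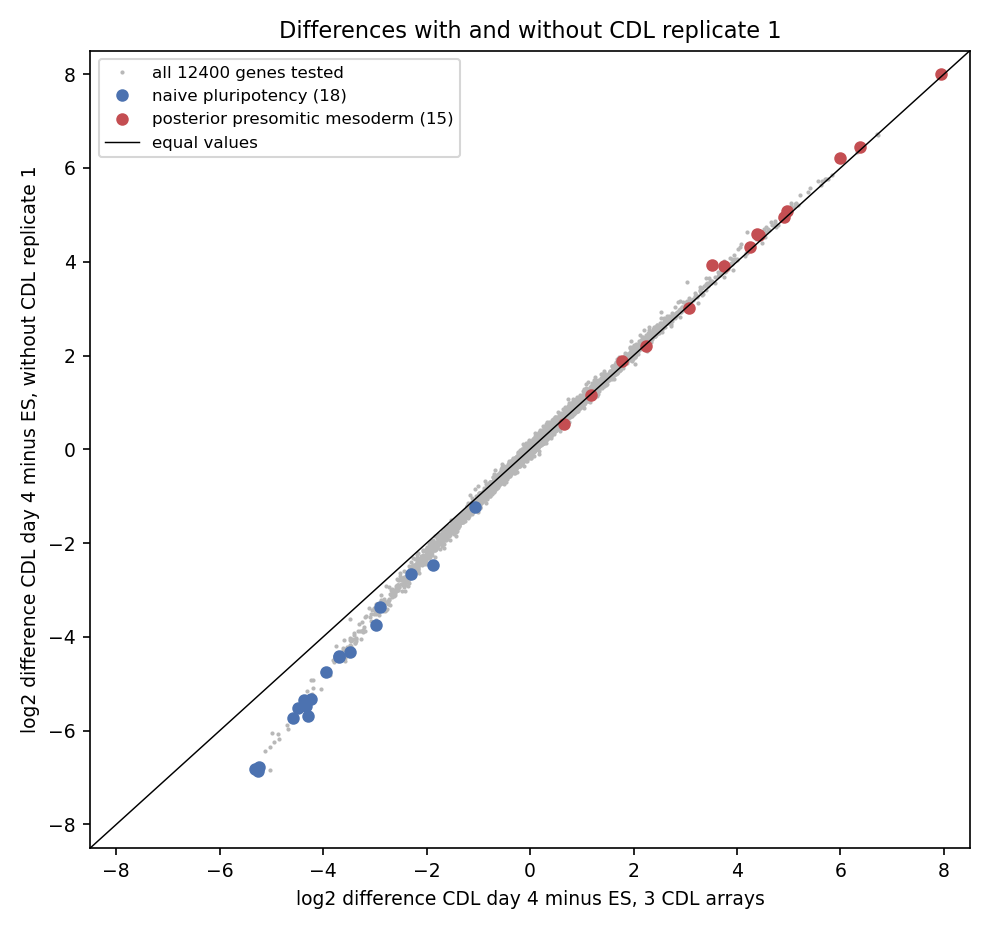
Log2 difference of CDL day 4 minus ES for 12400 genes with 3 CDL arrays (x axis) and without CDL replicate 1 (y axis), 1 point per gene, with the 18 naive pluripotency and 15 posterior presomitic genes coloured and a line of equal values. Points below -2 drop away from the line, as for Nanog at -5.27 and -6.85, while points above 2 stay near it, as for Aplnr at 7.95 and 8.01.

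**Figure D5:**
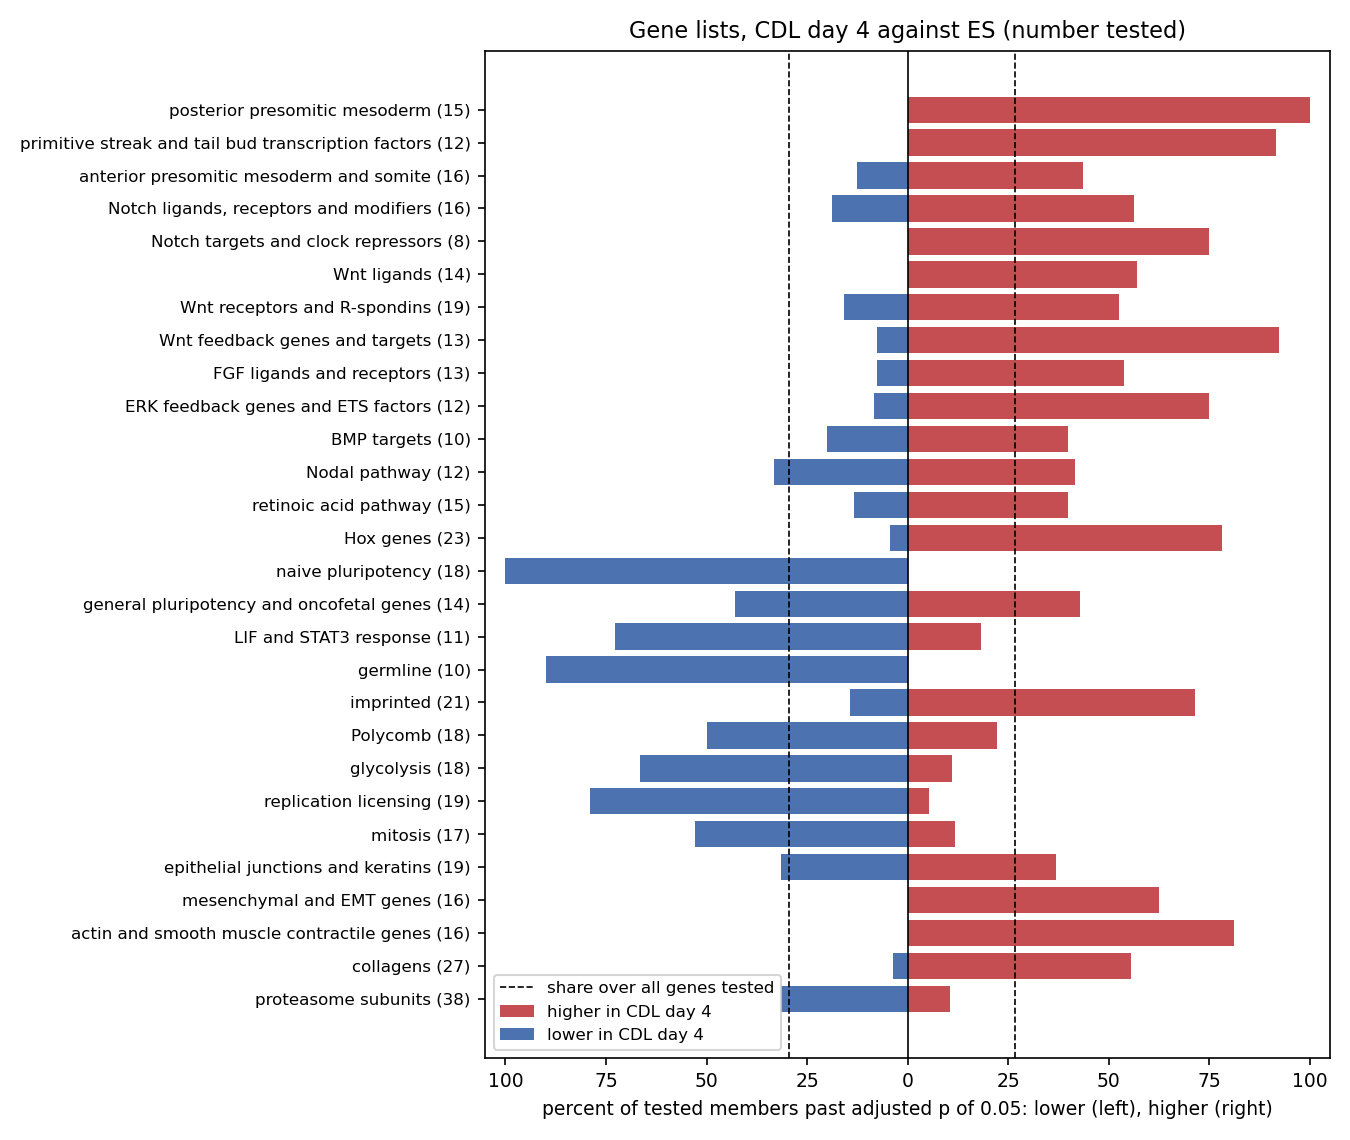
Percent of tested members called lower (left, blue) and higher (right, red) in CDL day 4 than in ES cells for 28 gene lists, with the number tested in brackets and dashed lines at the shares over all genes tested, 29.6% lower and 26.6% higher. Posterior presomitic mesoderm reaches 100% on the right and naive pluripotency 100% on the left. The BMP, Nodal and epithelial lists have calls on both sides, as do all genes tested.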

How the data were processed

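RNA from the 15 samples was labelled in 2 amplification cycles and hybridised to Affymetrix arrays, per the labels' protocols. The deposited values are linear intensities, 1 for each probe set, and the submitters' processing notes name MAS5 without a version or role. Of 45101 probe sets, 64 controls, 932 with several symbols and 9160 without one were left out. A constant of 12.6, the median over arrays of the 25th percentile, was added before log2. Each of 18193 genes was represented by its brightest probe set and kept if that was above its array's 50th percentile on at least 3 of 15 arrays, which left 12400 genes and set aside 5793 as dim. Group means over all 15 arrays were fitted with limma 3.58.1 in R 4.3.3 (eBayes with trend, Benjamini-Hochberg over all genes tested). The script was tested on simulated data.

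The groups and gene lists were chosen with earlier results of these data known. Named genes were the 15 largest called differences each way whose groups did not overlap, the 5 largest each way that passed only with or only without CDL replicate 1, and members of the lists. The day 6 arrays entered the fit for its spread only and are not described. Promoters came from RefSeq, and not all members had one. Plots were made in matplotlib 3.10.9 under Python 3.11.15. The labels call the replicates biological and say nothing of separate cultures, so p-values measure the spread between these samples. The groups were not treated as paired. Same-numbered ES and CDL arrays had residual correlations of -0.02, -0.02 and -0.11, and differently numbered ones -0.04 to 0.08. With deviations taken within 3 arrays a group, these values cannot decide whether equal numbers share a source. The alternatives were the 6 arrays alone, each replicate left out, other constants, other filters, quantile normalisation, the mean of probe sets, array weights and a replicate block.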

Additional observations from a re-analysis of the deposited data

Results flagged for a closer look

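Of 821 genes followed by list or by name, 28 differed by at least 2-fold between CDL and RDL cells at day 4, by limma with Benjamini-Hochberg adjustment, both with all arrays and without CDL replicate 1. Over all genes tested 0.774% differed so with all arrays and 0.605% without that replicate. Each value here is CDL minus RDL on the log2 scale. The test is of the difference between the media itself, in cells sorted alike.

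Of the 28, 20 were lower in CDL cells. Genes of the forming somite were Meox1 (-2.42), Tcf15 (-1.96), Ripply2 (-1.69), Dmrt2 (-1.67), Mesp2 (-1.42), Nr2f2 (-1.65), Nr2f1 (-1.19) and Efnb2 (-1.54). The protocadherin Pcdh8 (-1.45) and Meis1 (-1.60) (a Hox cofactor) were lower too. Genes also known from dermomyotome or intermediate mesoderm were Sim1 (-1.52), Eya1 (-1.17) and Met (-1.19). Signalling, guidance and matrix genes were Sema3c (-1.23), Ntn1 (-1.06), Fgf18 (-1.18), Col26a1 (-1.11) and Col18a1 (-1.10). The others were Mest (-1.20) and Foxp1 (-1.19).

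The other 8 were higher in CDL cells. They were the metallothioneins Mt1 (2.07) and Mt2 (1.80), the pluripotency genes Dppa2 (1.88), Pou5f1 (1.62) and Klf5 (1.27), the epithelial genes Cdh1 (1.43) and Cldn4 (1.23), and Igfbp3 (1.32). Dppa2, Pou5f1, Klf5 and Cdh1 had their highest CDL signal on replicate 1, which carries ES signal. Without it the differences of Dppa2 and Pou5f1 were 1.12 and 1.13, still called. Klf5 and Cdh1 also stayed called and at least 2-fold higher without it.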

How the results depend on the processing

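The 4 counts of called genes (higher, lower, and each at 2-fold) stayed within 1.5 times of their reported values under all 16 alternatives. Leaving out 1 replicate of either group in turn gave 2880 to 3194 higher and 3262 to 3620 lower genes, and 1063 to 1191 and 975 to 1267 at 2-fold. The Msgn1 difference then lay between 2.99 and 3.19. Array weights gave the most calls (4218 higher, 4535 lower), with a weight of 0.357 for CDL replicate 1. The mean of probe sets gave the fewest at 2-fold (791 and 830). The fit of the 6 arrays alone without CDL replicate 1, which was added after the data had been seen, called 3960 higher and 4296 lower. With the replicate number as a block, 3418 genes were higher and 3759 lower, and Msgn1 stayed at 3.07. The labels do not say whether arrays of the same number share a source. Of 544 followed genes called with all arrays, 477 kept their call in each alternative that tested them. The sign turned under the mean of probe sets for Hspa4 (0.053), Psma3 (0.0060) and Igfbp7 (-0.30), and the cause was not tested. Signals near the array medians limit what can be said of dim genes.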
